A study of Mus musculus with 6 samples.

Results

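Sulfatases remove sulfate groups from sugars, lipids and the glycosaminoglycan chains of proteoglycans. To describe how these enzymes were expressed in bone-forming cells with and without TET enzymes, 9 genes were read from the deposited counts of 55471 mouse genes. They comprise the arylsulfatase genes Arsi, Arsj, Arsa, Arsb and Arsk, the extracellular sulfatases Sulf1 and Sulf2, the lysosomal sulfatase Galns, and Sumf1, which encodes the enzyme that activates sulfatases. All 9 were present in the table and passed the filter on low counts. The set was chosen by gene name with the genotype difference of Arsi already known, so differences of these 9 genes between genotypes are given as a description without a test.

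RNA sequencing had been performed on primary osteoblasts from the calvaria, the skull cap, of 3-day-old C57BL/6 mice, with 3 libraries labelled WT and 3 labelled TCKO. The cells had been cultured for 3 days before harvest. TCKO denotes the triple conditional knockout of Tet1, Tet2 and Tet3, made with floxed alleles of all 3 genes and a Prx1-Cre transgene. Prx1-Cre is active in mesenchyme of the limbs and skull, so cells of other origin in the cultures would keep the alleles. The TET enzymes oxidise methylated cytosine in DNA. The WT label gives wild type, and whether those mice carried floxed alleles or Cre is not given in the sources used here. Nothing in the labels ties a library to 1 animal or to a pool.

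Every sulfatase of this family is made as an inactive protein. In the endoplasmic reticulum the SUMF1 enzyme converts a cysteine in a short signature (cysteine, any residue, proline, any residue, arginine) into formylglycine, the catalytic residue, and without this step the activity of all sulfatases is lost. In bone and cartilage, sulfatases of the lysosome break down chondroitin, dermatan, keratan and heparan sulfate, and inherited loss of several of them causes skeletal disease. SULF1 and SULF2 instead act outside the cell, where they trim 6-O-sulfates from heparan sulfate and thereby change the binding of growth factors.

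The signature is shown for 7 of the 8 sulfatases because it is the feature that ties all of them to Sumf1. Each line holds 33 coding bases, 5′ to 3′ on the strand of the gene, from the GENCODE M21 transcripts of build GRCm38. The 15 bases in capitals encode the 5 residues of the signature, beginning with the codon of the converted cysteine.
Arsj: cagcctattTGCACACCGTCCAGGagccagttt
Arsa: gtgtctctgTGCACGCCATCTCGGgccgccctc
Arsb: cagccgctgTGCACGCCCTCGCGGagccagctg
Galns: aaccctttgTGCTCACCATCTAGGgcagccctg
Arsk: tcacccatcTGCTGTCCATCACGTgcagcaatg
Sulf1: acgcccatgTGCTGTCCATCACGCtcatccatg
Sulf2: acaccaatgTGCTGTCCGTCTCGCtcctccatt
All 7 sites used TGC for the cysteine, and the 15 capital bases differed between all 7 genes. The converted cysteine was residue 120 of Arsj, 68 of Arsa, 92 of Arsb, 76 of Galns, 83 of Arsk, 87 of Sulf1 and 88 of Sulf2. The Arsj site lies at chr3:126365122-126365154 on the plus strand, the Arsb site at chr13:93772042-93772074 on the plus strand, the Sulf1 site at chr1:12796843-12796875 on the plus strand and the Sulf2 site at chr2:166117002-166117034 on the minus strand. The other 3 sites cross an exon junction on the minus strand, so their coordinates include an intron. They lie at chr15:89475353-89475530 (Arsa), chr8:122604200-122605158 (Galns) and chr13:76091813-76093915 (Arsk). Arsb held 2 matches to the signature, of which the first is shown, while the other 6 held 1 each. Between the whole transcripts of Sulf1 and Sulf2, whose proteins have 870 and 875 residues, the longest identical run was 20 bases.

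Before the values are given, 3 features of the libraries bear on them. Total counts lay between 8019999 and 10177214 per library, at which 3 counts, the most that a true 0 is taken to hide, equal 0.299 to 0.373 CPM (counts scaled to a library of 1000000, using TMM factors; these floors cover counting error only). Replicates 1 and 2 of each genotype resembled each other closely and replicate 3 stood apart. In a comparison of counts over genes the chi-square divided by its degrees of freedom was 1.69 (WT) and 2.04 (TCKO) for the close pairs and 16.5 to 23.3 for pairs that include replicate 3. As the close pairs still differed beyond counting noise, all 6 libraries were used, but the close pairs add little information on the spread between cultures. Mitochondrial genes took 2.22% and 2.47% of counts in both replicate 3 libraries and 1.11% to 1.24% in the others, and TCKO replicate 3 alone had the female pattern of Xist and Ddx3y. Of the targeted genes, Tet1 was lower in TCKO (log2 fold change -0.97 ± 0.16 SE), Tet2 did not pass (-0.14 ± 0.14) and Tet3 was higher (0.51 ± 0.09), with edgeR quasi-likelihood adjusted p-values of 0.00648, 0.545 and 0.00745. The counts cover all exons, deleted or not, so directions rest on the labels.

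Arsi was the sulfatase with the widest gap between the genotypes. It encodes arylsulfatase I, a secreted member of the family whose natural substrate is not well defined, and spans 60911780 to 60918561 on chromosome 18 (GRCm38, ENSMUSG00000036412). WT replicates 1, 2 and 3 had 1308, 1587 and 1239 counts of Arsi, and the TCKO replicates had 199, 188 and 175. On the CPM scale these were 158.4, 158.4 and 150.2 CPM in WT and 22.7, 23.4 and 19.6 CPM in TCKO. The genotypes did not overlap, and each set of 3 libraries was tight. Mean Arsi levels were 155.6 ± 4.72 CPM for WT and 21.9 ± 2.00 CPM for TCKO (SD, n = 3), which is 7.11-fold lower, and the log2 fold change was -2.83 ± 0.09 (SE). Replicates 1 and 2 alone gave -2.77 and replicate 3 alone -2.92, so both sets of libraries gave a similar value. In bulk RNA, fewer cells that express a gene and less RNA per cell cannot be told apart.

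Arsj, the closest relative of Arsi, did not share this pattern. It encodes arylsulfatase J, whose substrate is likewise not well defined, and lies on chromosome 3, 126363684 to 126440375 (ENSMUSG00000046561). WT libraries had 5.81, 6.79 and 8.001 CPM of Arsj and TCKO libraries 8.11, 9.70 and 5.61 CPM. The genotypes overlapped, and TCKO replicate 3 was the lowest of the 6 libraries. The log2 fold change was 0.18 ± 0.24 (SE), with a difference of 0.48 within replicates 1 and 2 and -0.50 within replicate 3. The longest identical run between the transcripts of Arsi and Arsj was 17 bases. Levels of different genes are compared here as RPKM, reads per kilobase of summed exon length, scaled to library size. On this scale Arsi exceeded Arsj by a ratio of 30.0 ± 5.504 in WT and 3.77 ± 0.716 in TCKO (SD, n = 3), and the lowest and highest ratios were 24.4 and 35.4 (WT) and 3.13 and 4.54 (TCKO).

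**Figure D1:**
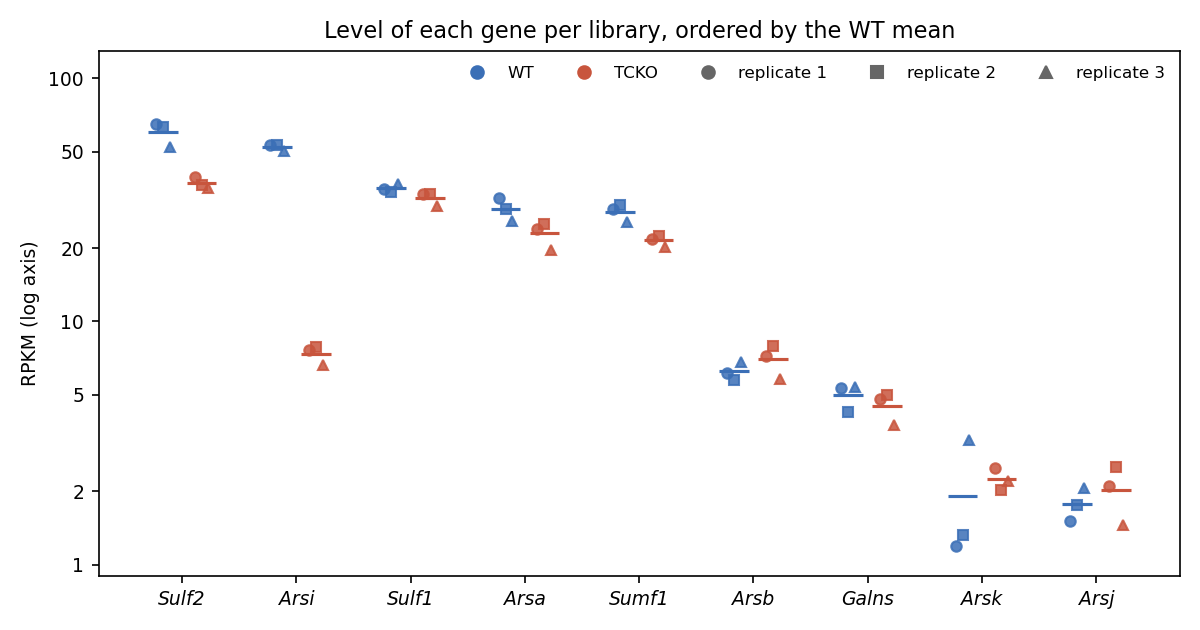
Level of the 9 genes in each library in RPKM on a log axis, with genes ordered by their WT mean; circles, squares and triangles are replicates 1, 2 and 3, and horizontal bars are group means. Arsi moves from a WT mean of 52.3 RPKM, near Sulf2, to a TCKO mean of 7.36 RPKM, near Arsb, while the other 8 genes shift far less.

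The extracellular sulfatases Sulf1 and Sulf2 were both abundant. Sulf2 (chromosome 2, 166073089 to 166155663, ENSMUSG00000006800) had 383.1, 369.7 and 306.7 CPM in WT and 231.5, 213.7 and 208.8 CPM in TCKO. All 3 TCKO libraries lay below all WT libraries, and WT replicate 3 was the lowest of its group. The means of 353.2 ± 40.8 and 218.0 ± 11.97 CPM (SD, n = 3) correspond to a 1.62-fold lower level and a log2 fold change of -0.70 ± 0.10 (SE). On the log2 scale, replicates 1 and 2 differed by -0.76 and replicate 3 by -0.55. Sulf2 shares 154 bp of exon with Ncoa3 on the opposite strand, which had 2741 counts over the 6 libraries against 15007 of Sulf2, and whether counting used the strand is not stated.

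Sulf1 (chromosome 1, 12692277 to 12861192, ENSMUSG00000016918), which has the same activity on heparan sulfate, differed little. WT libraries had 398.0, 384.9 and 413.7 CPM of Sulf1 and TCKO libraries 378.4, 378.6 and 337.2 CPM. The genotypes did not overlap, but TCKO replicates 1 and 2 came close to WT replicate 2. The log2 fold change was -0.13 ± 0.08 (SE), with -0.05 within replicates 1 and 2 and -0.29 within replicate 3. The ratio of Sulf2 to Sulf1 in RPKM was 1.71 ± 0.245 in WT and 1.15 ± 0.0572 in TCKO (SD, n = 3). The WT ratios, 1.43 to 1.85, lay above the TCKO ratios, 1.09 to 1.19.

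Among the lysosomal sulfatases, Arsa was the most abundant. Arsa (chromosome 15, 89472476 to 89477425, ENSMUSG00000022620) encodes arylsulfatase A, which removes sulfate from the lipid sulfatide. It had 118.5, 106.6 and 94.9 CPM in WT and 88.8, 93.0 and 72.7 CPM in TCKO. The groups did not overlap, although WT replicate 3 and TCKO replicate 2 were close, and replicate 3 was the lowest library of both genotypes. The log2 fold change of Arsa was -0.33 ± 0.12 (SE), and both sets of replicates gave a lower value in TCKO, -0.31 and -0.38.

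Arsb and Galns act on the sulfated chains that fill cartilage and bone matrix. Arsb (chromosome 13, 93771630 to 93943016, ENSMUSG00000042082), which removes the 4-sulfate of N-acetylgalactosamine from dermatan and chondroitin sulfate, had 37.2, 34.7 and 41.2 CPM in WT and 43.7, 47.9 and 35.1 CPM in TCKO. Galns (chromosome 8, 122578242 to 122611463, ENSMUSG00000015027), which removes 6-sulfates from keratan sulfate and chondroitin sulfate, had 14.2, 11.3 and 14.2 CPM in WT and 12.7, 13.2 and 9.98 CPM in TCKO. For both genes the genotypes overlapped and TCKO replicate 3 was the lowest TCKO library. The log2 fold changes were 0.16 ± 0.13 (SE) for Arsb and -0.14 ± 0.16 for Galns. Within replicates 1 and 2 the differences were 0.35 and 0.03, and within replicate 3 they were -0.23 and -0.50, so the sign differed between the sets for each gene.

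Arsk (chromosome 13, 76060422 to 76098660, ENSMUSG00000021592) encodes a lysosomal sulfatase that acts on 2-sulfated glucuronate. WT libraries had 7.02, 7.78 and 19.2 CPM of Arsk and TCKO libraries 14.7, 11.9 and 13.01 CPM. WT replicate 3 was the highest of the 6 libraries and the other WT libraries were the lowest. The fitted log2 fold change was 0.23 ± 0.36 (SE) with all libraries and 0.83 without WT replicate 3, and replicates 1 and 2 alone gave 0.82 against -0.55 for replicate 3. The value for Arsk therefore depended on which replicates were taken.

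Sumf1 (chromosome 6, 108107028 to 108185582, ENSMUSG00000030101), on which all of these sulfatases depend, had 98.6, 103.1 and 87.3 CPM in WT and 74.5, 76.6 and 69.1 CPM in TCKO. Every TCKO library lay below every WT library. The means of 96.3 ± 8.14 and 73.4 ± 3.86 CPM (SD, n = 3) correspond to a 1.31-fold lower level and a log2 fold change of -0.39 ± 0.09 (SE), with -0.41 within replicates 1 and 2 and -0.34 within replicate 3. The pseudogene Rpl36-ps12 lies inside Sumf1 on the same strand with 5907 counts against 4452 of Sumf1, but shares no exon bases with it.

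**Figure D2:**
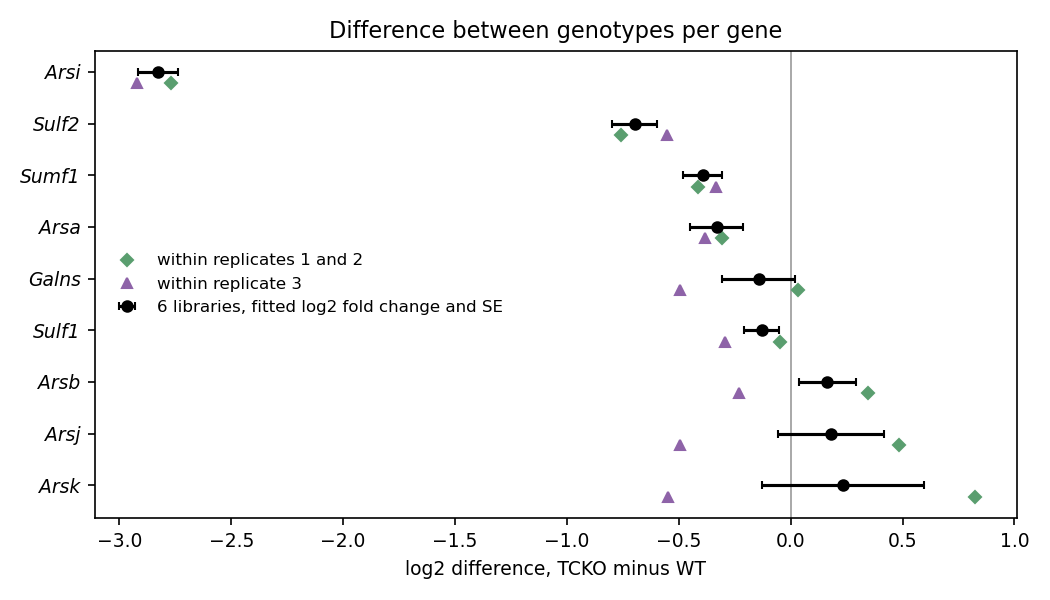
Log2 difference between TCKO and WT for each of the 9 genes, where black points and bars are the fitted log2 fold change and its SE over 6 libraries, green diamonds the difference within replicates 1 and 2, and purple triangles that within replicate 3. Arsi lies at -2.83 with both sets close to it, whereas Arsk, Arsj, Arsb and Galns have a positive value within replicates 1 and 2 and a negative one within replicate 3.

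Seen across the 9 genes, the only one called lower at an edgeR adjusted p under 0.05 and a fold over 2 was Arsi. Over all 13826 tested genes 3.19% were called lower and 3.16% higher. Without the fold requirement the genes lower were Arsi, Sulf2 and Sumf1, which is 3 of 9, while 8.63% of all tested genes were lower and 9.07% higher by this rule. The genotypes did not overlap, with TCKO lower, for 5 of 9 genes (Arsi, Arsa, Sulf1, Sulf2 and Sumf1), and the groups of the other 4 overlapped. Among all tested genes 18.9% did not overlap with TCKO lower and 19.4% with TCKO higher. Because the set was selected on this contrast, these shares are a description. The median log2 fold change of the 9 genes was -0.14, beside 0.00020 for all tested genes.

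The direction of some of the 9 genes differed between the sets of libraries. In replicate 3 all 9 genes were lower in TCKO, with a median log2 difference of -0.50, whereas 49.2% of all tested genes were lower there. In replicates 1 and 2, 5 genes were lower and 4 higher, with a median of -0.05, and 50.3% of all tested genes were lower. The 5 genes of the same sign in both sets were Arsi, Sulf2, Sumf1, Arsa and Sulf1, and over all tested genes 69.2% had the same sign in both, so a change of sign was common. TCKO replicate 3, the library with the female pattern and the highest mitochondrial share, had the lowest level of 8 of the 9 genes among TCKO libraries, the exception being Arsk, and the part of these features in the differences was not tested.

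The order of the levels was examined next, since Arsi changed its place among the sulfatases. In WT the mean levels were 60.2 ± 6.95 RPKM for Sulf2, 52.3 ± 1.59 for Arsi, 35.3 ± 1.28 for Sulf1, 29.0 ± 3.21 for Arsa and 28.3 ± 2.39 for Sumf1 (SD, n = 3). Arsb followed at 6.25 ± 0.543 RPKM, Galns at 4.98 ± 0.631, Arsk at 1.92 ± 1.15 and Arsj at 1.78 ± 0.284. Sulf2 and Arsi overlapped in WT, as did Arsa and Sumf1, and Arsk and Arsj, while the other neighbours were separate. In TCKO the order was Sulf2 at 37.1 ± 2.04 RPKM, Sulf1 at 32.3 ± 2.11, Arsa at 23.1 ± 2.91, Sumf1 at 21.6 ± 1.14 and then Arsi at 7.36 ± 0.671. Below Arsi stood Arsb at 6.995 ± 1.08 RPKM, Galns at 4.51 ± 0.648, Arsk at 2.24 ± 0.239 and Arsj at 2.02 ± 0.534. In TCKO Arsi overlapped Arsb, Arsa overlapped Sumf1, and Arsk overlapped Arsj.

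Arsi thus went from rank 2 to rank 5 of the 9 genes. Its WT level was above that of 92.6% of all tested genes and its TCKO level above 57.2%. Sulf2 stayed at rank 1, above 93.6% of tested genes in WT and 89.3% in TCKO. Summed over the 8 sulfatases, the level was 191.7 ± 8.76 RPKM in WT and 115.6 ± 9.19 RPKM in TCKO (SD, n = 3). Arsi made up 27.3% ± 0.612 of this sum in WT and 6.37% ± 0.134 in TCKO, and Sulf1 and Sulf2 together made up 49.8% ± 0.978 and 60.2% ± 2.13. The sums hold transcripts and give no measure of enzyme activity.

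Some of these genes overlap others on the genome. Arsa shares 690 bp of exon with C230037L18Rik on the opposite strand (26 counts against 5004), Arsb shares 463 bp with Gm47210 (2 counts against 2076), and Arsj shares 212 bp with Gm17225, which had 0 counts. With so few counts in the partner, the main doubt over strand concerned Sulf2 and Ncoa3.

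To find genes that behaved most like Arsi, log2 CPM of each gene was centred on its mean over the 6 libraries and the root mean square difference from Arsi was taken. Of 13825 genes compared, with a median difference of 1.42, the 5 nearest were Npr3 (0.158), Adamtsl4 (0.169), Eya2 (0.202), Calhm5 (0.204) and Acan (0.205). Npr3 encodes the clearance receptor of natriuretic peptides, and went from 187.2 ± 7.58 to 31.1 ± 3.42 CPM (SD, n = 3). Adamtsl4 encodes a secreted ADAMTS-like glycoprotein, and went from 34.9 ± 3.89 to 5.83 ± 1.02 CPM. Eya2, a transcriptional cofactor with phosphatase activity, went from 17.1 ± 2.26 to 2.84 ± 0.126 CPM, and Calhm5, of the calcium homeostasis modulator family, from 45.3 ± 4.98 to 7.36 ± 1.45 CPM. Acan encodes aggrecan, the large chondroitin sulfate proteoglycan of cartilage, and went from 302.6 ± 47.4 to 46.5 ± 10.15 CPM. These genes were picked by their likeness over the same 6 libraries, so their differences carry no test.

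**Figure D3:**
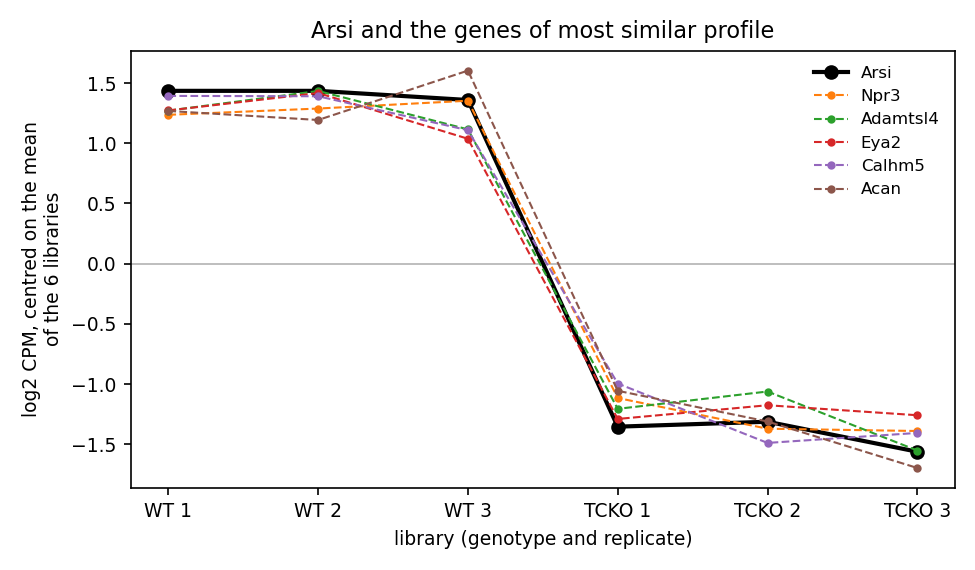
Log2 CPM of Arsi (black) and of the 5 genes nearest to it (dashed), each centred on its mean over the 6 libraries, for WT and TCKO replicates 1, 2 and 3. All 6 profiles step down between the WT and TCKO libraries, and their log2 differences within replicate 3 run from -2.30 for Eya2 to -3.30 for Acan, with Arsi at -2.92.

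Since Acan is a cartilage gene, marker lists of the cell types a calvarial culture can hold are given beside Arsi. Of 10 chondrocyte markers, 9 were lower at an edgeR adjusted p under 0.05, and the summed level was 6488 to 8418 CPM in WT libraries and 751.6 to 1031 CPM in TCKO libraries. Of 11 osteoblast markers 6 were tested and 3 were lower, with sums of 30190 to 32550 CPM in WT and 14260 to 22410 CPM in TCKO. Bglap, Dmp1 and Ifitm5, markers of mature osteoblasts and osteocytes, had at most 3 counts in every library. Of 12 macrophage and osteoclast markers 11 were tested and 3 were lower, with sums of 519.1 to 843.9 and 185.6 to 578.3 CPM, and Ocstamp, an osteoclast gene, had at most 3 counts. The chondrocyte and osteoblast sums thus both fell together with Arsi, and their part in the result was not tested. Nearly all of the osteoblast sum came from Col1a1 (21500 to 23200 CPM in WT, 11330 to 16300 CPM in TCKO) and Col1a2 (8250 to 9125 and 2745 to 6001 CPM). The osteoblast markers that were lower were Runx2, Alpl and Col1a1. Sp7, Col1a2 and Ibsp did not pass, with edgeR adjusted p-values of 0.0877, 0.0676 and 0.620. Col2a1 made up most of the chondrocyte sum, at 5728 to 7539 CPM in WT and 598.1 to 843.2 CPM in TCKO. Acan, picked above for its likeness to Arsi, is in the same list.

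Markers of other cells were low. The 6 endothelial markers summed to 1.90 to 2.91 CPM in WT and 3.65 to 7.18 CPM in TCKO, where 1 was tested and was higher (Esam), and Tie1 had at most 3 counts. The 6 skeletal muscle markers summed to 7.09 to 24.2 CPM in WT and 6.73 to 16.0 CPM in TCKO, and the 3 tested did not pass. The 6 adipocyte markers summed to 41.1 to 59.9 CPM in WT and 23.0 to 33.5 CPM in TCKO, also without overlap. Of these, 1 of 3 tested was lower (Lpl), and Adipoq, Fabp4 and Plin1 had at most 3 counts.

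Other genes of sulfate and glycosaminoglycan metabolism, from sulfate supply and chain assembly to lysosomal breakdown, were then tested, because they were not part of the set. Their lists were also chosen with earlier results of these data known, which limits what the p-values and shares below can show. Of 76 genes in 6 lists, 74 were found and 64 tested, and at an edgeR adjusted p under 0.05 (quasi-likelihood test, Benjamini-Hochberg adjustment over all tested genes) 7 were higher in TCKO, 9 were lower and 48 did not pass. This is 25% of the 64, beside 17.7% of all tested genes, with a median log2 fold change of -0.12. With the replicate number as a block 6 were higher and 15 lower. With replicates 1 and 2 summed, which leaves 2 samples per genotype, 1 was higher (Chst2) and 1 lower (Xylt1), and with a block added to these sums 5 were higher and 5 lower.

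Of the other sulfatase genes, 5 were tested and 1 passed. Ids, which removes 2-sulfates from heparan and dermatan sulfate in the lysosome, had 165.5, 164.6 and 143.0 CPM in WT and 101.6, 101.8 and 101.9 CPM in TCKO. It was lower in all 3 TCKO libraries than in any WT library, with a log2 fold change of -0.63 ± 0.08 (SE, edgeR adjusted p = 0.00187). Ids lies on chromosome X, and only TCKO replicate 3 had the female pattern, whose part in these values was not tested. Summing replicates 1 and 2 raised the edgeR adjusted p of Ids to 0.0733. Those that did not pass included Arsg, a heparan sulfate sulfatase (-0.70 ± 0.28, edgeR adjusted p = 0.133), Sgsh, which removes N-linked sulfate from heparan sulfate (-0.15 ± 0.10, 0.329), and Sumf2, a relative of Sumf1 without its activity (-0.37 ± 0.11, 0.0597). Sumf2 passed with the replicate block (edgeR adjusted p = 0.0274), but not with replicates 1 and 2 summed (0.204) or with the block added to these sums (0.124). Arsg shares 48 bp of exon with Slc16a6 on the opposite strand, which had 318 counts against 313, so its values are less certain.

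Genes that build and sulfate heparan sulfate, the substrate of Sulf1 and Sulf2, went both ways. Of 15 tested, 1 was higher and 2 were lower, with a median log2 fold change of -0.15. Hs6st2, which adds the 6-O-sulfates that the SULF enzymes remove, had 453.4, 462.6 and 345.4 CPM in WT and 206.3, 197.4 and 210.3 CPM in TCKO, and was lower with a log2 fold change of -1.04 ± 0.12 (SE, edgeR adjusted p = 0.00129). Extl1, a glycosyltransferase of the exostosin family, was lower from a low level, at 4.33 ± 0.660 against 1.36 ± 0.121 CPM (-1.66 ± 0.25, edgeR adjusted p = 0.00417). Hs2st1, which adds 2-O-sulfates, was higher at 134.6 ± 2.90 against 80.9 ± 8.82 CPM (0.73 ± 0.09, edgeR adjusted p = 0.00187). Hs6st2 also lies on chromosome X, and the part of the female pattern of 1 TCKO library in its values was not tested. Summing replicates 1 and 2 gave edgeR adjusted p-values of 0.0531 for Hs6st2, 0.0704 for Extl1 and 0.0531 for Hs2st1.

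Chondroitin, dermatan and keratan sulfate enzymes formed the list with the largest share of passing genes among the 6. Of 16 tested, 5 were higher and 3 lower, with a median of -0.05. Chst2, a sulfotransferase that acts on N-acetylglucosamine, had 67.6, 62.0 and 64.9 CPM in WT and 134.0, 132.1 and 136.2 CPM in TCKO. The groups were far apart, with a log2 fold change of 1.05 ± 0.07 (SE, edgeR adjusted p = 0.000127). Chst11, a chondroitin 4-O-sulfotransferase, was higher at 103.9 ± 4.16 against 59.5 ± 14.1 CPM (0.81 ± 0.15, edgeR adjusted p = 0.0101). Chst1, which sulfates keratan sulfate, was higher at 23.4 ± 7.98 against 12.7 ± 1.95 CPM (0.89 ± 0.25, edgeR adjusted p = 0.0431), but leaving out 1 library at a time lost the call in 4 of 6 fits, with an edgeR adjusted p of up to 0.154 without WT replicate 2. With replicates 1 and 2 summed, Chst2 had an edgeR adjusted p of 0.0159, Chst11 of 0.141 and Chst1 of 0.182.

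In the remaining lists few genes passed. Xylt1, which starts the linker that joins these chains to the core protein, was 1 of 8 linker genes tested and the only one to pass. It had 26.5, 27.8 and 32.7 CPM in WT and 14.0, 8.08 and 9.65 CPM in TCKO, without overlap, and was lower with a log2 fold change of -1.45 ± 0.20 (SE, edgeR adjusted p = 0.00285, and 0.0243 with replicates 1 and 2 summed). Of 6 sulfate supply genes, Slc26a2, the sulfate transporter, was lower (-0.43 ± 0.10, edgeR adjusted p = 0.0264), but the call was lost in 4 of 6 fits with 1 library fewer, reaching 0.107 without WT replicate 2. Of 14 lysosomal partners, the hyaluronidase gene Hyal2 was higher (0.48 ± 0.08, edgeR adjusted p = 0.00510) and Hgsnat, an acetyltransferase of heparan sulfate breakdown, was lower (-0.47 ± 0.13, edgeR adjusted p = 0.0463). The call of Hgsnat was lost with the replicate block (edgeR adjusted p = 0.0532) and in 4 of 6 fits with 1 library fewer, reaching 0.157 without WT replicate 1. With replicates 1 and 2 summed, Slc26a2 (0.203), Hyal2 (0.0965) and Hgsnat (0.306) did not pass by their edgeR adjusted p.

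**Figure D4:**
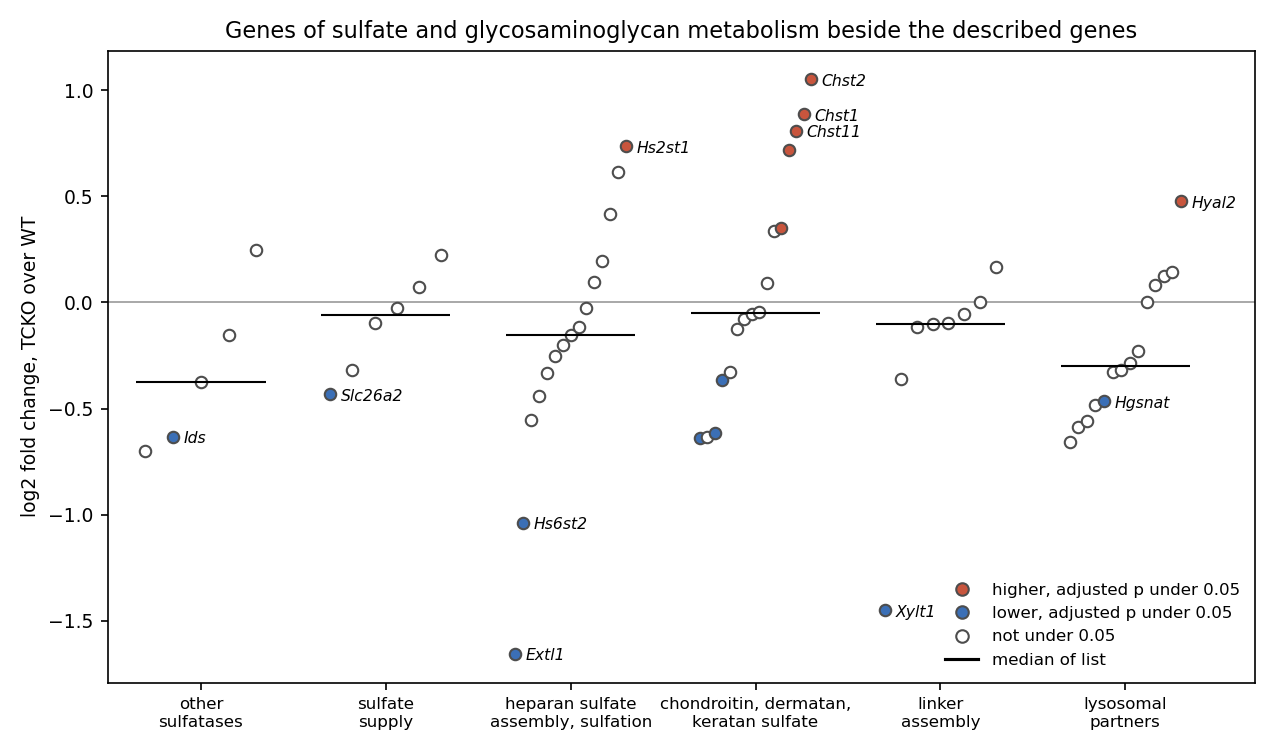
Log2 fold change (TCKO over WT) of the 64 tested genes of sulfate and glycosaminoglycan metabolism, in 6 lists, with 1 point per gene and a bar at the median of each list. Red points were higher and blue points lower at an edgeR adjusted p under 0.05, open points did not pass, and the extremes are Chst2 at 1.05 and Extl1 at -1.66.

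Because TET enzymes act on methylated cytosine, which in mammals lies mostly before guanine, the CpG content of the promoters is given as context. No DNA methylation was measured in these libraries. RefSeq start sites of GRCm38.p6 gave 7 windows of 250 bases upstream for 6 of the 9 genes. Sulf2, the gene of this group with the largest difference in RNA, had 2 windows, and the one upstream of the whole gene is shown, chr2:166155684-166155933 on the minus strand, 5′ to 3′ with each CG in capitals.
Sulf2: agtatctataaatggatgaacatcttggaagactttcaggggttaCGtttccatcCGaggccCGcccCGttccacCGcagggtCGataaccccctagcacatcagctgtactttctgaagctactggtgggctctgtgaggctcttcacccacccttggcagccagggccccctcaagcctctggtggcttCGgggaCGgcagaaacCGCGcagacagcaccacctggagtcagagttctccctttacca
This window held 10 CpG, as many or more than which were found in 37.8% of 32851 promoters, whose median was 6. The other Sulf2 window held 21 CpG, and those of Arsb, Arsk, Arsj, Arsa and Sumf1 held 18, 12, 11, 4 and 4. Bases just after the shown start were not found in the GENCODE transcripts of Sulf2, whereas those after the other start were. For the Sumf1 start they were not found either, so these RefSeq starts are less certain. The motif TGTGGT, a core of RUNX binding sites, was searched on both strands and was found in 1 of the 7 windows, that of Sumf1, and in 14.1% of all promoters. A match of these letters is a description and not evidence of binding.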

How the data were processed

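Poly(A) RNA of cultured calvarial osteoblasts was sequenced from directional libraries. The authors aligned reads with STAR 2.7.0e to GRCm38 (Ensembl release 99) and counted them per gene with featureCounts 2.0.0. The deposited values are raw counts per gene without normalization, and the strand setting is not given in the sources used here. No value column was left unassigned (0). Symbols were matched for 55144 of 55471 genes, and Sts and Bpnt2 were not matched.

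Counts were fitted with edgeR 4.0.16 (R 4.3.3; filterByExpr, TMM factors, glmQLFit and glmQLFTest, 3 WT against 3 TCKO without covariates), with Benjamini-Hochberg adjustment over 13826 genes holding 99.7% to 99.8% of counts per library. SEs were derived from the F statistic. RPKM used the deposited exon length and TMM-scaled libraries. Differences within replicates and profiles used log2 CPM with a prior count of 2. The fit was tested on simulated data. P-values measure the spread between these libraries only.

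The 9 genes, the gene lists and the tests were chosen with earlier results of these data known. Named were the 9 genes, Tet1 to Tet3, the tested genes among the other sulfatases (1 is not reported here), per other list the genes called at a fold over 2 or, with fewer than 3, those of adjusted p under 0.05 with the largest change up to 3, the 5 genes nearest to Arsi, and overlapping genes with counts. Gm17225 was named in addition, after its counts were seen. Replicate numbers from the sample titles were checked for pairing: deviations from group means of same-numbered libraries correlated across genes at 0.204, 0.214 and 0.347, so numbers were taken to pair libraries, although differently numbered pairs of replicates 1 and 2 gave 0.188 and 0.225. Alternatives were RLE factors, no filter, a mean of at least 50 counts, DESeq2 1.42.0, a replicate block, replicates 1 and 2 summed, and each library left out.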

Additional observations from a re-analysis of the deposited data

How the results depend on the processing

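In the alternatives run, Arsi and the named pathway genes kept their direction. The direction of the other called genes was not compared between fits. Genes called higher and lower numbered 255 and 288 when tested genes needed 50 counts on average, 178 and 146 when replicates 1 and 2 were summed, and 295 to 538 and 300 to 511 when 1 library was left out. Of the 64 pathway genes, 4 to 9 were higher and 6 to 17 lower when 1 library was left out, the highest number lower being without WT replicate 3. With the replicate block, 15 were lower. With replicates 1 and 2 summed 1 was higher and 1 lower, and with the block added to these sums 5 were lower. The block changed the call of Sumf2 and Hgsnat among the named genes and no other. Some of these fits held fewer genes or samples, and the causes of the changes were not tested.

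For the 9 genes, leaving out 1 library gave log2 fold changes of -2.88 to -2.75 for Arsi, -0.79 to -0.63 for Sulf2, -0.46 to -0.34 for Sumf1, -0.41 to -0.23 for Arsa, -0.16 to -0.07 for Sulf1, -0.25 to -0.02 for Galns, 0.06 to 0.29 for Arsb, -0.0023 to 0.38 for Arsj and -0.014 to 0.83 for Arsk. Values within sets of replicates moved by more than 1 SD for Arsj (-0.50 in replicate 3), Arsb (-0.23), Arsk (0.82 in replicates 1 and 2, -0.55 in replicate 3), Sulf1 (-0.048 in replicates 1 and 2, -0.29 in replicate 3), Sulf2 (-0.55 in replicate 3) and Galns (-0.50). Arsj and Arsk had as few as 48 and 58 counts in a library.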
